A study of Mus musculus with 10 samples.

Results

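Krueppel-like factors are transcription factors that bind GC-rich and CACCC elements in promoters through zinc fingers at the C-terminus, while their N-terminal parts recruit either coactivators or corepressors. In liver, members of the family are known for roles in glucose and amino acid metabolism, hormone responses, endothelial identity and the response to injury. N6-methyladenosine (m6A) is a methyl mark that the Mettl3-Mettl14 complex places on adenosines of mRNA, often near stop codons and in long exons, and the mark is known to affect how stable an mRNA is and how well it is translated. The genes described here are Klf2, Klf3, Klf4, Klf6, Klf9, Klf10, Klf11, Klf12, Klf13 and Klf15. They were chosen by gene name with earlier results of these data known, and they are 10 of the 8641 genes with an m6A peak in at least 1 list. That each of them had a peak is therefore not a result.

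Livers were taken from wild-type animals of the C57BL/6J strain on day 1 of life and at ages of 1, 2, 4 and 8 weeks. Whole liver was used, with no treatment and no sorting of cells. At each age the sample labels list 1 library of RNA fragments pulled down with an antibody to m6A (IP) and 1 input library, 10 libraries in all. The methods start from total RNA, with rRNA removed. For each age, IP was set against input to make 1 list of peaks. The methods give 2 animals per age, and a figure legend of the study mentions 2 replicates per time point. How they were combined is not given, so no spread between animals could be computed and no test between ages was possible. The tables for 2 and 4 weeks were identical in every position and value. They are counted once here, as the 2/4-week list, since the peak values themselves do not tell which of these ages they hold. Their number of gene names, 5515, equals that stated in the study for 2 weeks and differs from that stated for 4 weeks. The lists of day 1, 1 week and 8 weeks held 6330, 5522 and 3445 gene names, each the number stated for its age. By number of gene names the 2/4-week list is thus that of 2 weeks. The numbers of peaks stated in the study are higher than those of the lists at every age.

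A peak carried a fold, the ratio of IP to input reads over its span, and a p-value from the peak caller, both as the authors deposited them. Read totals are not in the lists, so the depth behind a peak is unknown. Folds of different lists share no scale, and each fold is therefore also given by its rank, the percent of peaks in its own list with a lower fold. Where no peak was called for a gene, its mRNA was not thereby shown to be unmethylated. Sequences are those of the GENCODE transcripts, written in the direction of the RNA. Levels of the mRNAs were not analysed, and in whole liver fewer cells of a type and less RNA per cell cannot be told apart.

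The 10 genes held 54 of the 32804 peaks in the 4 lists. There were 17 of 10161 peaks at day 1, 15 of 9070 at 1 week, 13 of 8765 in the 2/4-week list and 9 of 4808 at 8 weeks, so their number declined alongside the length of the lists. With every list cut to the length of the shortest, they numbered 10, 11, 8 and 9 in order of age, which was no steady decline. A peak was present for 8 of the 10 genes at day 1, where 73.3% of the 8641 genes had one, and for 8 at 1 week, where 64.0% did. It was present for 7 genes in the 2/4-week list against 63.9% of all genes, and for 6 at 8 weeks against 39.9%. Klf2, Klf9 and Klf13 had peaks in all 4 lists, 3 of 10 genes against 23.8% of all genes. The widest gap to the share over all genes, at 8 weeks, came to about 2 genes, and in lists of equal length that share was 57.9%, close to the 6 of 10.

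Presence across ages took 7 different patterns among the 10 genes. Klf3 and Klf6 had peaks in every list but that of 8 weeks, a pattern shared by 1607 genes in all. Klf4 had peaks at day 1 and 1 week only, as did 668 genes, and Klf11 at day 1 only, as did 1085 genes. Klf15 had peaks only in the 2/4-week and 8-week lists, the reverse of Klf4, and 139 genes showed this pattern. Klf12 was present in every list but day 1, as were 193 genes, and Klf10 in every list but 2/4 weeks, as were 178 genes. The patterns of Klf10, Klf12 and Klf15 were each held by at most 2.23% of the genes with a peak. Some patterns rested on 1 weak peak. The log10 FDR was -2.92 for the only Klf11 peak, and -2.9 and -1.76 for the 2/4-week peaks of Klf3 and Klf12. With a log10 FDR of at most -3 required, Klf11 had no peak, and Klf3 and Klf12 had none in the 2/4-week list. That list then held 5 of the 10 genes.

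**Figure D1:**
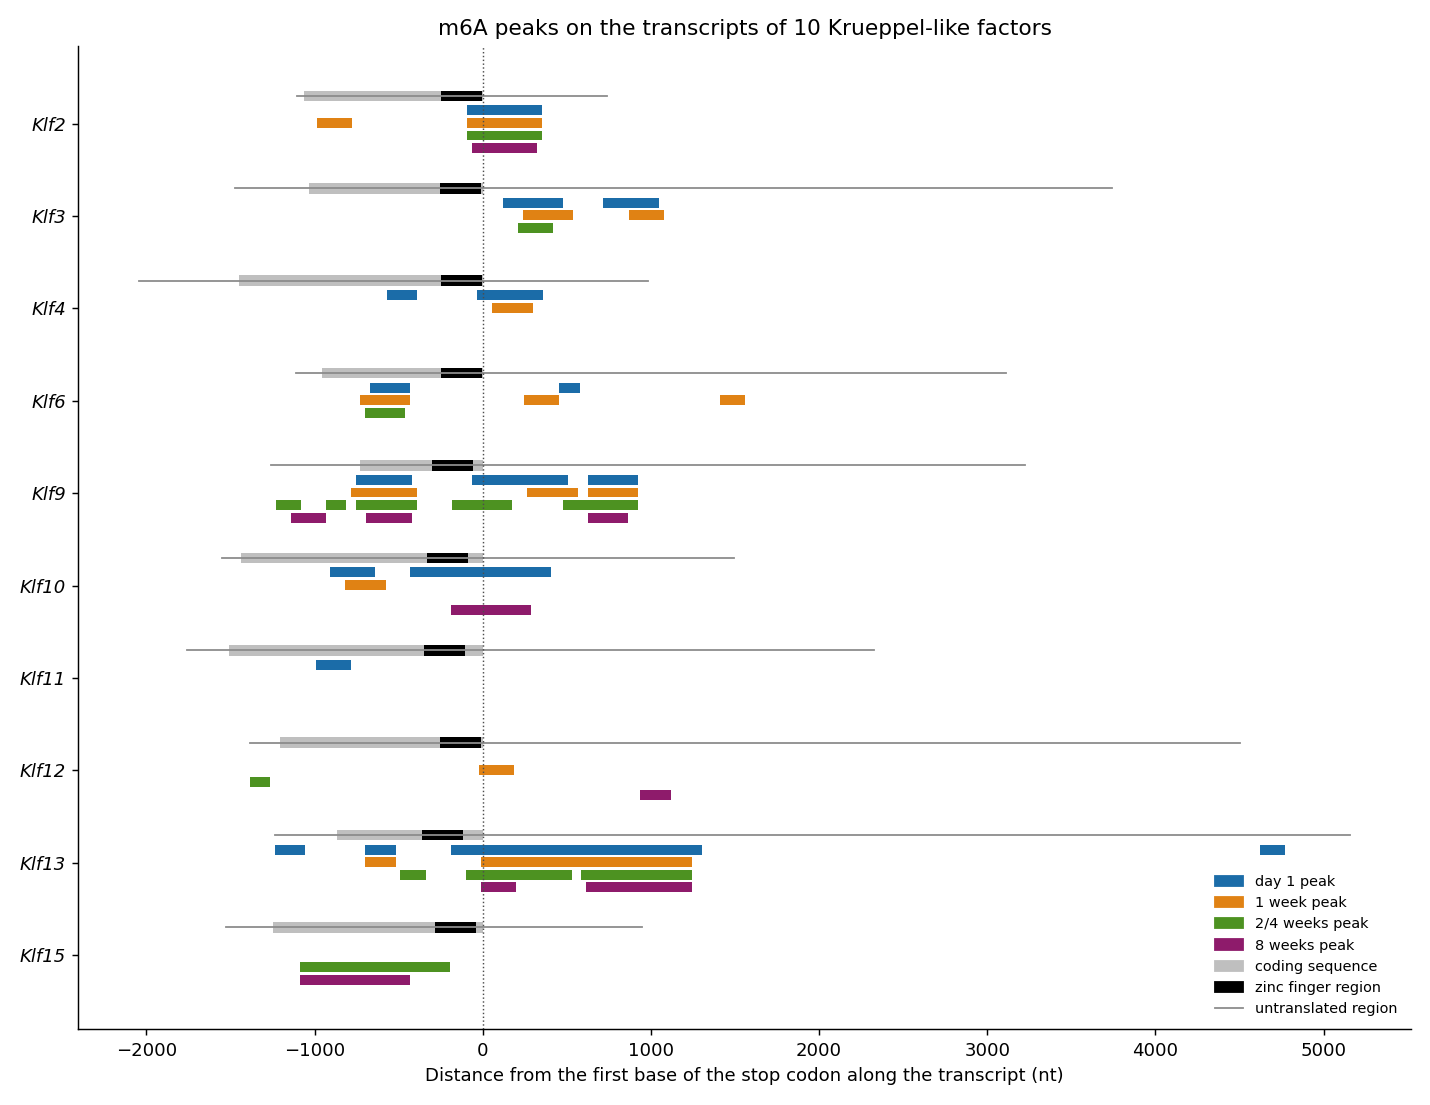
Each row is the longest protein-coding transcript of 1 gene, drawn to scale and aligned at the first base of the stop codon (x axis, nt). Coloured bars are the peaks of each list, the grey bar is the coding sequence and the black bar the zinc finger region. Klf2, Klf9 and Klf13 have bars of all 4 colours stacked at the same place, Klf12 has 3 bars at 3 places, and the Klf15 bars end before the stop codon.

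All 54 peaks lay on the exons of the longest protein-coding transcript of their gene, and none overlapped another annotated gene. When peaks that overlapped by at least 1 base were joined across lists, they formed 24 positions. Of these, 4 were found in all 4 lists, 2 in 3 lists, 8 in 2 lists and 10 in a single list. The 4 positions of all lists were the stop codon of Klf2, the first coding exon of Klf9, the stretch from the stop codon into the 3′ UTR of Klf9, and the same stretch of Klf13. In these last stretches several peaks of a list were linked through an overlapping peak of another list, so not every peak in them covered the stop codon. Peaks at single-list positions had folds from 5.95 to 26.2 with a median of 11.75, while the 44 peaks at positions found in 2 or more lists ranged from 4.17 to 521 with a median of 52.4.

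Klf2, Klf4 and Klf6 are known mainly as activators. Klf2 (ENSMUSG00000055148, chromosome 8) is a flow-responsive factor of endothelial cells. Its peak over the stop codon, in exon 3 of 3, had the same borders in 3 lists, chr8:72320822-72321269 on the forward strand of mm10, and was narrower at 8 weeks, chr8:72320852-72321239. The deposited fold was 240 on day 1, 521 in the 1-week list, 109 in the 2/4-week list and 175 in that of 8 weeks. These folds ranked above 97.4%, 99.1%, 90.7% and 96.7% of the peaks of their lists, so the Klf2 stop codon carried a peak near the top of every list. The peak took in the last 95 coding bases and 350 bases of 3′ UTR in the first 3 lists, and it covered 92 of the 243 bases that encode the zinc fingers. A second peak, in the coding sequence of exon 2, was called at 1 week only with a fold of 26.2. The word GGAC, the core in which m6A is most often found, occurred 3 times in the 388 bases shared by all 4 peaks, and the stretch shown, about 108 nt past the stop codon, holds a pair of them in capitals:
Klf2 3′ UTR, chr8:72321012-72321041, forward strand: ttaGGACagagccGGACaagtgtggccaca

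Klf4 (ENSMUSG00000003032, chromosome 4) is a reprogramming factor that also acts in endothelium and epithelia. A peak of 389 nt at chr4:55527771-55528159, on the reverse strand, covered its stop codon at day 1 with a fold of 66.6, above 82.5% of the list. At 1 week the peak was 240 nt wide, lay wholly in the 3′ UTR from 58 nt past the start of the stop codon, and had a fold of 26.2, above 57.9%. No Klf4 peak was called in the 2/4-week or 8-week list. The 240 bases shared by both peaks held no GGAC but 1 AGAC and 1 GAAC, variants of the m6A core. A further day 1 peak in the coding part of exon 3 had a fold of 12.6, and 132 other peaks of that list had this same fold and p-value.

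Klf6 (ENSMUSG00000000078, chromosome 13) is an immediate early factor known from liver injury and stellate cell activation. Unlike Klf2 and Klf4 it had no peak over the stop codon in any list. Its main peak lay in the coding part of exon 2, an internal exon of 577 nt, where the fold was 72.2 on day 1, 70.5 in the 1-week list and 46.3 in the 2/4-week list. These ranked above 84%, 81.9% and 76.8% of their lists, and no Klf6 peak was called at 8 weeks. The 210 bases common to the 3 peaks are shown because they hold 3 GGAC words, in capitals, a density of 14.3 per kb:
Klf6 coding sequence, exon 2, chr13:5864846-5865055, forward strand: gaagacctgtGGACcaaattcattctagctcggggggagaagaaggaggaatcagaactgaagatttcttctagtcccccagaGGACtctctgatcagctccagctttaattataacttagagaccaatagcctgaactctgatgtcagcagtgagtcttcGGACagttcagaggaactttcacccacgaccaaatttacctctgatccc
The other 3 Klf6 peaks were in the 3′ UTR, with folds of 13.3 at day 1 and 12.7 and 12.4 at 1 week. The day 1 peak met the nearer 1-week peak at only 1 base, and none of the 3 held a GGAC.

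Klf3 and Klf12 are repressors that recruit the corepressor CtBP. Klf3 (ENSMUSG00000029178, chromosome 5) restrains fat and red cell programmes and had peaks only in its 3′ UTR. The nearer position began between 118 and 237 nt past the stop codon, at chr5:64829274-64829693 over all lists. Its fold was 16.4 on day 1, 25.4 in the 1-week list and 12.9 in the 2/4-week list. They ranked above 45%, 57% and 36.8% of peaks, in the middle of their lists. The farther position had a fold of 4.17 at day 1, above only 5.4% of the list, and of 25.4 at 1 week. Its p-value of 3.2e-34 at day 1 was nevertheless lower than that of 74.2% of peaks, so a low fold did not go with a high p-value there. The 181 bases shared at the nearer position held no GGAC and 3 GAAC words, of which 2 are in capitals:
Klf3 3′ UTR, chr5:64829458-64829487, forward strand: aacgaGAACaaggGAACatgtaaactaacg

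Klf12 (ENSMUSG00000072294, chromosome 14) was first known as a repressor of the AP-2 alpha gene. It had 1 peak in each of 3 lists, and no peak overlapped another. At 1 week the peak covered the stop codon with a fold of 20, above 49.1% of the list. In the 2/4-week list it was 121 nt at the very start of the transcript, in the 5′ UTR of exon 1, with a fold of 8.78. At 8 weeks it lay in the 3′ UTR, 936 nt or more past the stop codon, with a fold of 8.81. Presence of Klf12 in 3 lists was therefore not the presence of 1 position, and the 5′ UTR peak had the fold and p-value (0.0072) of 179 other peaks.

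Klf9, Klf13, Klf10 and Klf11 carry an N-terminal domain that binds the corepressor Sin3a. Klf9 (ENSMUSG00000033863, chromosome 19), a target of glucocorticoid and thyroid hormone receptors, had the most peaks, 14 over the 4 lists, which together covered 42.8% of its transcript. The coding peak in exon 1 had a fold of 68 on day 1 and of 85.1 in the 1-week list, then of 188 in the 2/4-week list and of 14.4 in that of 8 weeks. In rank it stood above 82.9%, 85.4% and 95.6% of peaks in the first 3 lists but above only 41.3% at 8 weeks. The other Klf9 peak of every list lay far into the 3′ UTR. It began 624 nt past the stop codon at day 1, 1 week and 8 weeks and 475 nt past it in the 2/4-week list, with folds of 62.4, 123, 7.73 and 97.8 respectively. Its rank ran from 81.1% and 90.2% at day 1 and 1 week through 89.6% in the 2/4-week list to 17.1% at 8 weeks. The p-values of both did not follow the folds, since at 8 weeks the coding peak had a lower p-value than 73.4% of the list and the 3′ UTR peak than 78.9%.

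The stop codon of Klf9 was covered at day 1, by a peak of 570 nt with a fold of 60.9, and in the 2/4-week list, by one of 360 nt with a fold of 52.1. At 1 week the neighbouring peak began 265 nt past the stop codon, and at 8 weeks no peak lay between the coding sequence and 624 nt. Peaks in the 5′ UTR of Klf9 were called only in the older lists, with folds of 14.1 and 8.78 for the pair in the 2/4-week list, while that of 8 weeks had 1 with 16.2. The pair had the fold and p-value of 86 and 179 other peaks of their list, and the weaker had a log10 FDR of -1.76. The coding stretch common to all 4 lists held 2 GGAC words in 270 bases, whereas the 241 bases of 3′ UTR common to all 4 held none, with 3 AGAC and 2 GAAC words instead. The coding stretch and 30 bases of the 3′ UTR stretch are shown, since both were called in all 4 lists:
Klf9 coding sequence, exon 1, chr19:23141795-23142064, forward strand: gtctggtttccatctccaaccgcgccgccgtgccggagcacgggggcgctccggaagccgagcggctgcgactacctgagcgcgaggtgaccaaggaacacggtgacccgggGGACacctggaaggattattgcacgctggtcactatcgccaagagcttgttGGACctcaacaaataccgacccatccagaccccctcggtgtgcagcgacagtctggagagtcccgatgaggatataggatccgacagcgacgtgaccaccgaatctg
Klf9 3′ UTR, chr19:23165643-23165672, forward strand, with a GAAC in capitals: cacgataagtccgGAACtttcaaaccttgc

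Klf13 (ENSMUSG00000052040, chromosome 7), known for control of the chemokine gene Ccl5 in T cells, carried the widest peak of the group. At day 1 it was 1495 nt, chr7:63890206-63891700 on the reverse strand, and ran from the last 190 coding bases to 1305 nt past the first base of the stop codon, with a fold of 270. At 1 week it was 1256 nt with a fold of 313. The same stretch was, in the 2/4-week list, called as separate peaks of 628 nt over the stop codon, with a fold of 52.7, and 659 nt beyond it, with a fold of 199. At 8 weeks the peak over the stop codon was 210 nt with a fold of 26.1, and the distal one 629 nt with a fold of 162. The far border of the stretch was the same, 1246 nt past the start of the stop codon, in every list but that of day 1. In the 2/4-week list the distal peak ranked above 96% of peaks and at 8 weeks above 96.1%, and the peak over the stop codon above 79.5% and 60.1%. The 629 bases of the distal stretch, called in all 4 lists, held 8 GGAC words, 2 of them in the longer form GGACT, and the one nearest its middle is shown:
Klf13 3′ UTR, chr7:63890554-63890583, reverse strand: cacacatcccacaGGACtgatggtggcaac
The other 5 Klf13 peaks had folds from 5.95 to 12.6. They lay in the 5′ UTR and far 3′ UTR at day 1, and in the coding part of exon 1 at day 1, 1 week and in the 2/4-week list, the last at a place of its own.

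Klf10 (ENSMUSG00000037465, chromosome 15) is induced by TGF-beta and follows the circadian clock in liver. At day 1 a peak of 837 nt crossed the junction of exons 3 and 4 and the stop codon, with a fold of 290, above 98.2% of the list. It was the highest fold of the group at that age, and the peak was the only one of the 54 to cover all 243 bases that encode the zinc fingers. At 8 weeks the peak over the stop codon was 478 nt, chr15:38295621-38296098 on the reverse strand, with a fold of 33.8, above 66.9%. Neither the 1-week nor the 2/4-week list had a peak there, and at 1 week the only Klf10 peak lay upstream in the coding sequence. Its fold was 10.5, beside 13.3 for the day 1 peak that overlapped it. The 478 bases shared by day 1 and 8 weeks held 2 GGAC words, one of which is shown:
Klf10 3′ UTR, chr15:38295710-38295739, reverse strand: ggcaggtcacagaGGACagggctcagttct

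Klf11 (ENSMUSG00000020653, chromosome 12), the close paralogue of Klf10 and likewise induced by TGF-beta, had a single peak. It was 211 nt in the coding part of exon 3 at day 1, with a fold of 13.3 and a p-value of 0.00039 that 114 other peaks shared together with that fold. Klf10 and Klf11 were 76.1% identical over the zinc finger bases and each had a day 1 peak in the coding part of exon 3, but the strong Klf10 peak at the stop codon had no counterpart in the lists for Klf11.

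Klf15 (ENSMUSG00000030087, chromosome 6) drives gluconeogenesis and amino acid breakdown in fasting liver. Its peaks were called only in the older lists, in the coding sequence of exon 3, an exon of 1104 nt. In the 2/4-week list the peak was 892 nt, chr6:90466601-90467492 on the forward strand, with a fold of 72, and at 8 weeks it was 654 nt, chr6:90466601-90467254, with a fold of 49.5. Both shared their first base, and their ends lay at -197 and -435 nt from the stop codon. Their ranks by fold were above 85% and 78.4% of peaks, while 99.5% and 98.4% of peaks had higher p-values than theirs, the most extreme shares of the group, with p-values deposited as 0. GGAC was sparse in them, 2 in the 654 bases common to both lists, and one is shown with its surroundings:
Klf15 coding sequence, exon 3, chr6:90466923-90466952, forward strand: agaacggtagcagGGACctggagacctgta

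**Figure D2:**
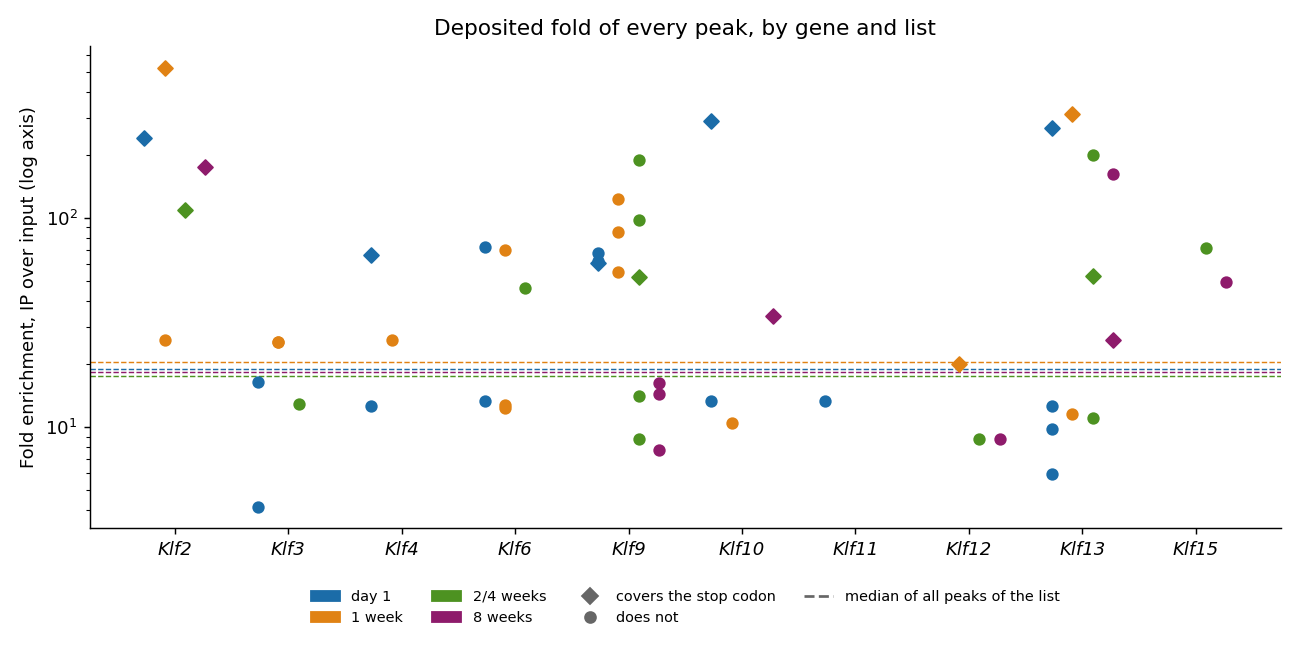
Each point is 1 peak, with its deposited fold of IP over input on a log y axis, by gene and coloured by list. Diamonds cover the stop codon, circles do not, and dashed lines are the median fold of all peaks of each list, between 17.6 and 20.4. The Klf2 points that cover the stop codon and the highest Klf13 point of each list lie above 100, the Klf9 points of 8 weeks lie below their list's median, and the Klf3 points of 1 week coincide at 25.4.

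Set side by side by the highest peak of each gene, Klf2 and Klf13 stayed near the top of every list. The highest fold of Klf2 was above that of 96%, 98.6%, 86.9% and 95.6% of the genes of the successive lists, and that of Klf13 above 96.9%, 96.1%, 94% and 94.8%. Klf9 went from 76.4% at day 1 to 93.5% in the 2/4-week list and 38.2% at 8 weeks. Its highest peak was not the same one throughout. It was the coding peak at day 1 and in the 2/4-week list, a 3′ UTR peak at 1 week and a 5′ UTR peak at 8 weeks. Klf6 lay between 70% and 77.7% and Klf12 between 15.4% and 41% in the lists that held them. The median over the members present was 70.1, 48.35, 72 and 41.65 in the successive lists, beside 25.85, 26.9, 22.2 and 24 over all genes of those lists. The highest of several peaks depends on their number, and the members held 2.13, 1.88, 1.86 and 1.5 peaks per gene. Over all genes of the lists it was 1.6, 1.64, 1.59 and 1.39. Taken peak by peak, the median fold of the members was 16.4, 26.2, 52.1 and 26.1. Over all peaks it was 18.9, 20.4, 17.6 and 18.3, so at day 1 the members' median was the lower.

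**Figure D3:**
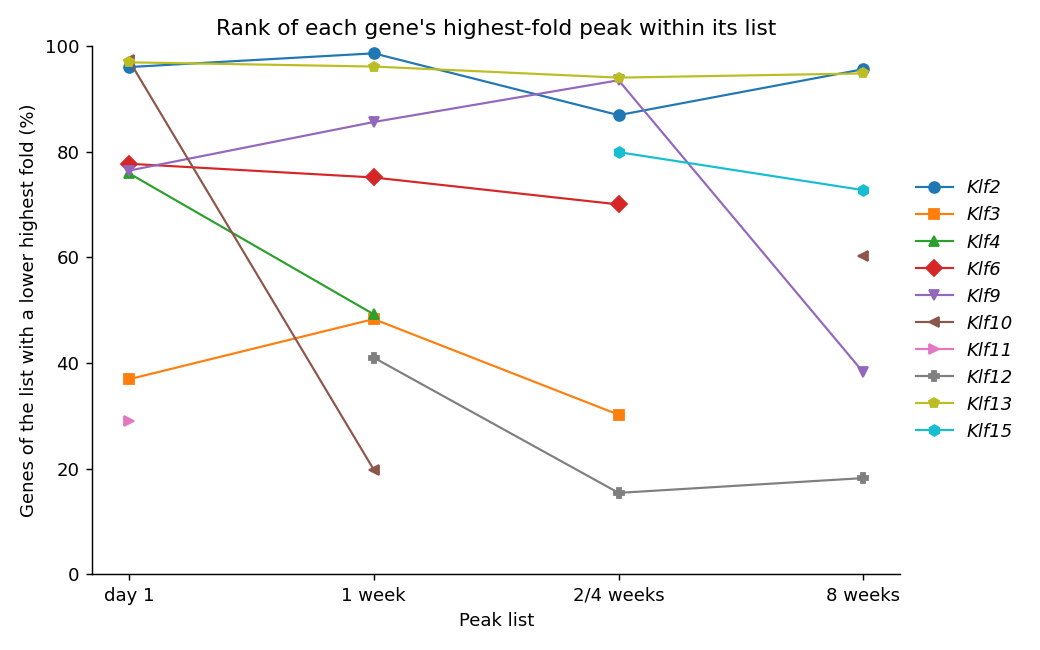
For each gene and list the y axis gives the percent of genes in that list whose highest fold was lower, with the 4 lists on the x axis in order of age. Lines join neighbouring lists that both hold the gene, and the highest peak of a gene can lie at different sites in different lists, as for Klf9 and Klf10. Klf2 and Klf13 stay above 86% throughout, Klf9 drops to 38.2% at 8 weeks, and Klf10 is at 97.3% at day 1, 19.8% at 1 week and 60.2% at 8 weeks.

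Along the transcripts, 30 of the 54 peaks (55.6%) were classed by the authors as 3′ UTR or stop codon, against 35.6% of all peaks. There were 19 in the coding sequence (35.2% against 44.9%) and 5 in the 5′ UTR (9.26% against 3.82%). The class called exon, which took 15.7% of all peaks, held none of them. By list, the share classed as 3′ UTR or stop codon was 52.9%, 66.7%, 38.5% and 66.7%, against 36.1%, 34.3%, 35.3% and 37.3% of all peaks. The 54 peaks lay at 24 positions, and a position called in several lists is counted more than once. Klf9 held 14 of the peaks and Klf13 11, so these shares are not over independent peaks. A peak covered the stop codon itself 14 times, in 6 genes (25.9% against 20.7% of all peaks on coding transcripts), and of these 12 were classed as 3′ UTR and 2 as coding sequence. The middle of the peak lay within 200 nt of the stop codon for 11 of 54 (20.4%), against 25.3% of the 29034 peaks that could be placed on a coding transcript. The last exon held the middle of 32 of 54 peaks (59.3%), while the last exon made up on average 70.8% of the transcripts they lay on. Over the 29034 peaks the share was 68.4% and the last exon made up 55.7%. The share of middles in the last exon was thus below the last exon's share of length for these genes and above it over the peaks on coding transcripts. The peaks of Klf6, Klf9, Klf13 and Klf15 classed as coding sequence lay in first or internal exons of 577 to 1104 nt, except the Klf9 peak over the stop codon in the 2/4-week list, which lay in the last exon.

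The zinc fingers offered a way to compare paralogues at the same place. Each gene encoded 3 fingers in 243 bases that ended between 3 and 117 nt before the stop codon, nearest in Klf2, Klf4 and Klf6 and farthest in Klf13. Over the 45 pairs of genes these bases were 57.2% to 78.2% identical, with a median of 64.2% and no identical run longer than 17 nt. Peaks reached into the finger bases 13 times in 7 genes, and 11 of these peaks covered the stop codon as well, the others being a coding peak of Klf13 and one of Klf15 in the 2/4-week list. GGAC occurred at most 2 times in the fingers of a gene and at none in Klf2, Klf3, Klf6 and Klf15. Where it did occur the place was seldom shared, since base 152 of the finger region began a GGAC in Klf9, Klf10 and Klf11, base 99 in Klf4 and Klf11, and every other place in 1 gene only.

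GGAC, searched on the strand of the RNA, was present in 38 of the 54 peaks (70.4%), against 75.3% of the 29034 peaks on coding transcripts. Of all windows of the same width on the same transcripts, 65.8% held it for these genes and 64.6% for the 29034 peaks. By list the shares varied, over only 17, 15, 13 and 9 peaks. At day 1 GGAC was in 82.4% of the genes' peaks and 69.7% of windows, at 1 week in 46.7% and 63.6%. In the 2/4-week list it was in 69.2% and 62.9%, and at 8 weeks in 88.9% and 66.1%. Over all peaks on coding transcripts it was in 78.6%, 75.8%, 74.3% and 69.3% of the successive lists. A difference between ages was not tested, and positions called in several lists are counted more than once. The longer GGACT was in 29.6% of the 54 peaks and in 28.5% of windows of their widths, against 38.9% and 28.3% for the 29034 peaks. CAGG, the same letters in another order, was in 63% of the peaks and 77.7% of the windows. Joined over all lists, the peaks of the 10 genes covered 23.7% of the 40706 transcript bases and held 57 of the 158 GGAC words (36.1%), that is 5.91 per kb inside peaks and 3.25 per kb outside. The density was higher inside for 8 genes, led by Klf11 with 14.2 per kb in its single peak, Klf13 with 9.74 and Klf2 with 9.12. The exceptions were Klf15, with 2.24 inside and 3.77 outside, and Klf6, with 3.85 and 4.06, whose 3 peaks in the 3′ UTR held no GGAC. Of the 16 peaks without GGAC, 14 held an AGAC or a GAAC, but with these words added 93.4% of the windows held a match too.

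**Figure D4:**
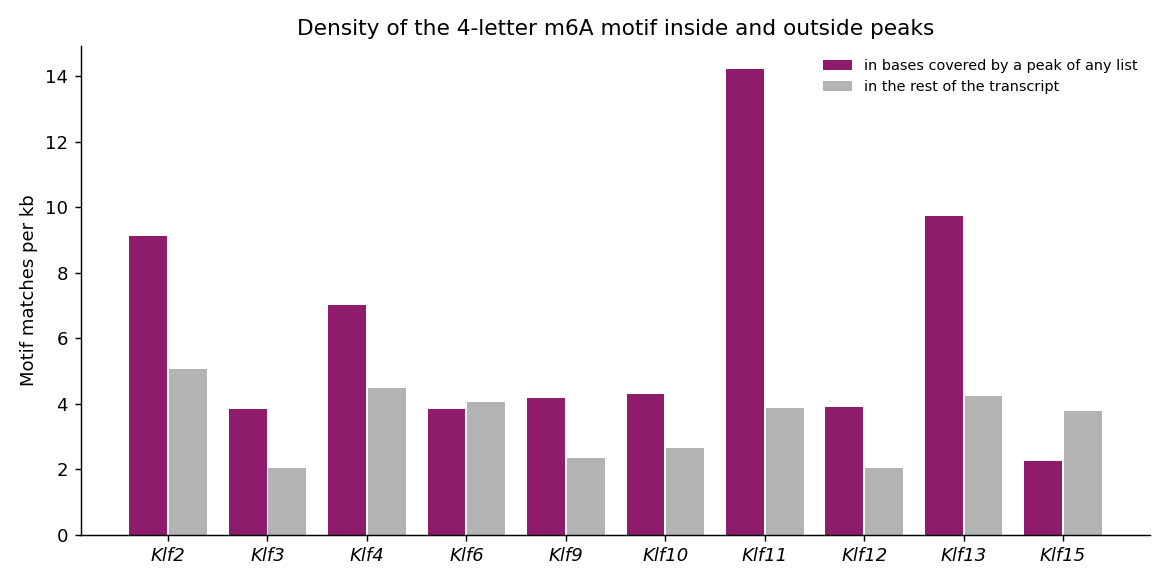
Matches to GGAC per kb in the bases covered by a peak of any list (purple) and in the rest of the same transcript (grey), for each gene, with the y axis starting at 0. The purple bar is the taller for 8 of the 10 genes, and the grey bar is the taller for Klf6 and Klf15.

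Several of the weaker peaks had values that recurred across a list. A fold and p-value shared with more than 80 other peaks of the same list belonged to 11 of the 54 peaks, in 7 genes, and all of these had folds of 14.1 or lower. The read counts behind such ties are not in the lists.

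Other genes of the family and its partners were counted in the same way. Of 8 further Krueppel-like factors, of which 7 are named in the annotation used, 3 had a peak in any list: Klf1 at 1 week with a fold of 218, Klf5 at day 1 with 18.2 and 11.9, and Klf7 at 1 week with 34.2 and 10.2. Of 9 Sp factors, which share the zinc fingers, 4 had peaks, and Sp1 had them in all lists. Of 14 cofactors 8 had peaks, and Sin3a, Ep300, Crebbp and Ncor1 had them in all 4 lists. Presence in all 4 lists held for 23.8% of the 8641 genes, a base that leaves out genes never called. No share over all annotated genes was computed, so whether the counts of these 3 sets are unusual was not tested. The best fold of Sin3a, the corepressor of Klf9, Klf10, Klf11 and Klf13, was 17 on day 1, 46.5 in the 1-week list, 14.6 in the 2/4-week list and 19.7 in that of 8 weeks.

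Markers of the cell types of liver were set beside these patterns. Among endothelial markers, Cdh5, Eng, Flt4, Kdr, Lyve1 and Robo4 had a peak in every list and Tek at day 1 only. Pecam1, Stab1, Stab2, Tie1 and Egfl7 had none. The number of the 12 endothelial markers with a peak was 7, 6, 6 and 6 in the successive lists. Of 11 erythroid markers, Klf1 among them, it was 6, 5, 2 and 0, of 10 hepatocyte markers 4, 4, 6 and 4 (Apob, Apoe and Fgb in each, Alb and Ttr in none), of 8 stellate cell markers 3, 3, 2 and 3, and of 7 Kupffer and myeloid markers 2, 3, 2 and 2. Of the 8641 genes, each called at least once, 73.3%, 64.0%, 63.9% and 39.9% had a peak in the successive lists. The marker sets also hold markers that were never called, so their counts are not on the same base as these shares. Markers called at least once numbered 7 endothelial, 8 erythroid, 7 hepatocyte, 3 stellate cell and 3 Kupffer and myeloid. The part of cell composition in the patterns of the 10 genes was not tested.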

How the data were processed

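The authors sequenced IP and input libraries of wild-type liver and aligned them to mm10 with HISAT2. The authors' exomePeak lists, as deposited, gave each peak's exon blocks, class, p-value and fold, the ratio of IP over input. The authors kept 1 isoform per gene, the longest, and searched motifs with HOMER. Log10 values of p and FDR were deposited beside these, and cells that held an error in place of a number were read as minus infinity. No per-sample depth is in the lists.

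Peaks of the 10 genes were located on the longest coding transcript of GENCODE M21 (GRCm38, the assembly of mm10), the source of all sequences shown. Deposited starts, counted from 0, are given from 1. Python 3.11.15, pandas 2.3.3 and numpy 2.4.6 were used, and the code was tested on simulated data. All 10 members are named. Members, gene lists and motifs were chosen with earlier results of these data known. The table labelled 4 weeks was not used, since it repeated that of 2 weeks. Stricter peak filters, equal list lengths, other overlap rules and other motifs were tried as alternatives.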

Additional observations from a re-analysis of the deposited data

How the results depend on the processing

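The counts and shares were recomputed with peaks at a log10 FDR of at most -3, at an FDR of at most 0.05, with a fold of at least 5, with every list cut to the 4808 peaks of the shortest, over protein-coding genes, and with other overlap and position rules. Of 65 such values 60 kept close to the value reported. Counts were called close within a ratio of 1.5. Falls from 17 to 12 peaks at day 1 and from 13 to 9 in the 2/4-week list, at a log10 FDR of at most -3, were thus called close. No peak of the 10 genes had an FDR above 0.05, so that filter could not change their counts or shares. Taking protein-coding genes as the background changed only the share over all genes, and could not change the members' counts. The values from both settings were therefore fixed in advance, yet they are among the 60. Klf2, Klf9 and Klf13 were the 3 genes present in all lists under every peak filter, and 4 positions were found in all lists under every filter and overlap rule. The presence patterns of Klf3, Klf11 and Klf12, by contrast, changed at a log10 FDR of at most -3. With lists of equal length the peaks of the 10 genes fell from 17 to 10 at day 1 and from 13 to 8 in the 2/4-week list, so the decline to 9 at 8 weeks was no longer present. At that length 6 genes had a peak at 8 weeks against 57.9% of all genes. Narrowing the distance from the stop codon to 100 nt gave 9.26% of peak middles. Searching GGACT instead of GGAC gave 29.6% of peaks, and GGAC, AGAC or GAAC, a choice made after the data were seen, gave 96.3%. No paired analysis was possible because the labels list 1 IP and 1 input library per age. With 1 list per age and unknown depth, a peak missing from a list sets no upper limit on methylation there.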
